A study of Mus musculus with 4 samples.

Results

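The p53 target genes examined here are 32 mouse genes taken by their gene name from the 54532 genes of the table. They comprise Trp53, which encodes p53 itself, and genes known to be switched on by p53 in mouse or human cells. RNA was sequenced from skin epidermal stem cells (EpSCs) of C57BL/6 mice, cultured in EpiLife medium with HKGS supplement. ALP, taken to be the burdock (Arctium lappa) polysaccharide named in the series title, was given at 30 μg/mL for 48 h, and control cultures were given 0.06% DMSO over the same 48 h. Each group had 2 libraries, named A and B here, with 15766244 to 17430345 counts each. Whether these were separate cultures or mice is not given in the labels, nor whether DMSO was also present with ALP. The p-values therefore cover library-to-library spread alone, which may be technical.

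p53 is a transcription factor that is kept low by the ubiquitin ligase Mdm2 and its partner Mdm4. DNA damage and other stresses release it, and it then binds DNA as a tetramer, at sites built of paired decamers. Its targets fall into several roles: inhibitors that feed back on p53, genes that restrain the cell cycle and growth, DNA repair genes, and genes of cell death. In the epidermis p53 is best known for the response to ultraviolet light, and its relative p63 maintains the basal layer.

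The cells carried the transcripts of basal keratinocytes. The 6 basal markers (Krt5, Krt14, Trp63, Itga6, Itgb4 and Col17a1) summed to 36147 and 29850 CPM (the count relative to the library's total, scaled between libraries by TMM) in the ALP libraries, against 48103 and 48336 CPM in the controls. Trp63 and Col17a1 fell and Itga6 and Itgb4 rose in ALP. Krt5 and Krt14, which make up most of the sum, had log2 fold changes of -0.64 and -0.58. They did not pass in the main test (edgeR adjusted p = 0.0719 and 0.0982). DESeq2 called both lower (adjusted p = 1.84e-05 and 0.00076), as did limma-voom (0.0152 and 0.0254) and edgeR's older method (0.0234 and 0.0383). With DESeq2 size factors, a filter of 1 CPM in 2 libraries or no low-count filter edgeR called neither. Fibroblast markers summed to 7.93 and 4.46 CPM in ALP against 17.5 and 13.6 CPM in control, with Lum at 0. Of these Dcn had 3.07 and 0.517 CPM in ALP against 13.1 and 8.57 CPM in control and fell, and the other 4 tested did not pass. Melanocyte markers summed to 64.7 and 53.7 CPM in ALP against 62.0 and 56.7 CPM in control. The 5 immune markers summed to 0.405 and 0.582 CPM in ALP against 0.566 and 0.971 CPM in control, with Cd3e and Cd207 at 0. Of the 3 endothelial markers Pecam1 and Kdr were higher in ALP while Cdh5 had at most 2 counts in each library, and their sum was 14.4 and 24.8 CPM in ALP against 4.59 and 6.57 CPM in control. The part of these shifts in the results below was not tested. In bulk RNA, fewer cells of a type and less RNA per cell cannot be told apart.

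Promoter sequences of 24 of the 32 genes were found by symbol in the RefSeq windows of GRCm38.p6, which span 250 bases before to 50 bases after each start. The p53 decamer, searched with no mismatch and identical on both strands by its symmetry, occurred in at least 1 window of 10 of these 24 genes (41.7%), against 9.55% of all 27025 genes of the table. Per window this was 11 of 34 (32.4%) against 8.36% of 32851 windows. Adjacent decamers, with at most 13 bases between them and at most 2 mismatches outside the core C and G, occurred in 4 of 34 windows (11.8%) against 4.09% of all windows. These 4 were Ccng1, Gtse1, Sesn1 and Bax. A single decamer occurred in Mdm2, Trp53 and Aen, which rose under ALP, and in Ddit4l, Ei24 and Polk, which did not pass. The sequences below are the 4 with adjacent decamers and the single decamers of Mdm2 and Trp53, as examples of these matches. Decamers are in capitals, and the sequences run 5′ to 3′ on the gene's strand.
Ccng1: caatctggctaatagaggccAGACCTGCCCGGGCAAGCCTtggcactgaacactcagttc
Gtse1: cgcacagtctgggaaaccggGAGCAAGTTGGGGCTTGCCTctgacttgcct
Sesn1: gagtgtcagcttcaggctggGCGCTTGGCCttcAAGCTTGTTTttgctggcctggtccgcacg
Bax: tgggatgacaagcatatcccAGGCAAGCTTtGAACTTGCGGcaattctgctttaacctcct
Mdm2: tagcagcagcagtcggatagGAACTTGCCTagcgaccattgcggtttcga
Trp53: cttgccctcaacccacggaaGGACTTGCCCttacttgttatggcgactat
The Ccng1 stretch is chr11:40755442-40755501 on the minus strand, where the decamers abut with 1 mismatch and begin 195 bases before the start. The Gtse1 stretch is chr15:85859925-85859975 on the plus strand, where they also abut with 1 mismatch and begin 1 base before the start. The Sesn1 stretch, chr10:41887233-41887295 on the plus strand, lies before an internal start of the gene and has 3 bases between decamers and 2 mismatches. The Bax stretch, chr7:45467059-45467119 on the minus strand, has 1 base between decamers and 2 mismatches. The Mdm2 stretch is chr10:117710915-117710964 on the minus strand and the Trp53 stretch chr11:69580264-69580313 on the plus strand. A match describes the letters of the window and is not a binding site, and a window without one says nothing about p53.

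**Figure D1:**
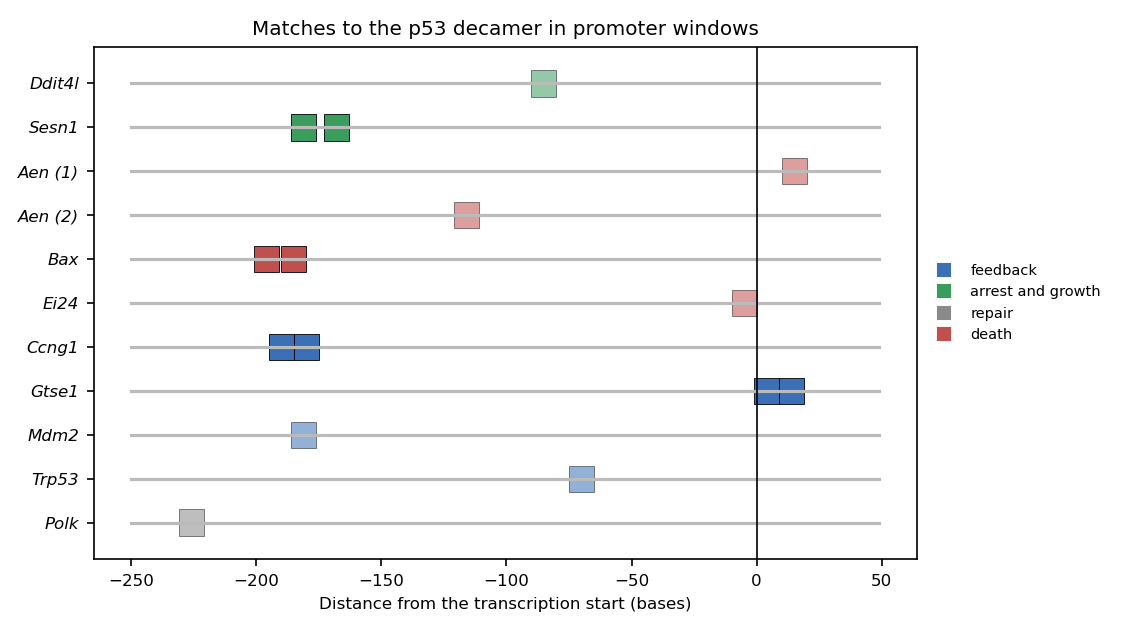
Position of the decamer matches in the promoter windows of the 10 genes that hold one, in bases from the transcription start (vertical line at 0); each box is a decamer of 10 bases, colored by role, in full color where decamers are adjacent and pale where single. Aen has 2 windows that share the same match, and the adjacent decamers are those of Ccng1, Gtse1, Sesn1 and Bax.

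The comparison of ALP with control asks how the targets of p53 stand in cultures treated with an agent that the series title links to proliferation. Under ALP the feedback genes Ccng1, Gtse1 and Mdm2 and Trp53 itself rose, as did the polo-like kinase genes Plk3 and Plk2 and 5 death genes, led by Eda2r and Tnfrsf10b. In the opposite direction, the death genes Trp53inp1, Bbc3, Pmaip1 and Perp fell. No repair gene passed the test. Of the 32 genes 31 had enough counts to be tested, and 18 of these (58.1%) had an adjusted p below 0.05 in the quasi-likelihood test of edgeR, 12 higher and 6 lower in ALP. Over all 14056 genes tested 30.9% passed, 18% higher and 12.9% lower. In 27 of the 31 the ALP libraries and the controls did not overlap, against 75.7% of all genes tested. The median log2 fold change over the 31 was 0.35, against -0.00 over all genes tested. The median absolute log2 fold change was 0.69 against 0.39. Without control replicate A or without control replicate B the median over the 31 was 0.320 or 0.326. In these fits edgeR called neither the 31 nor any other gene. Leaving out ALP replicate A gave 26 calls, while calls over all genes went up to 7518 against 4350 with all libraries. Leaving out ALP replicate B gave 21, with 5073 over all genes.

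**Figure D2:**
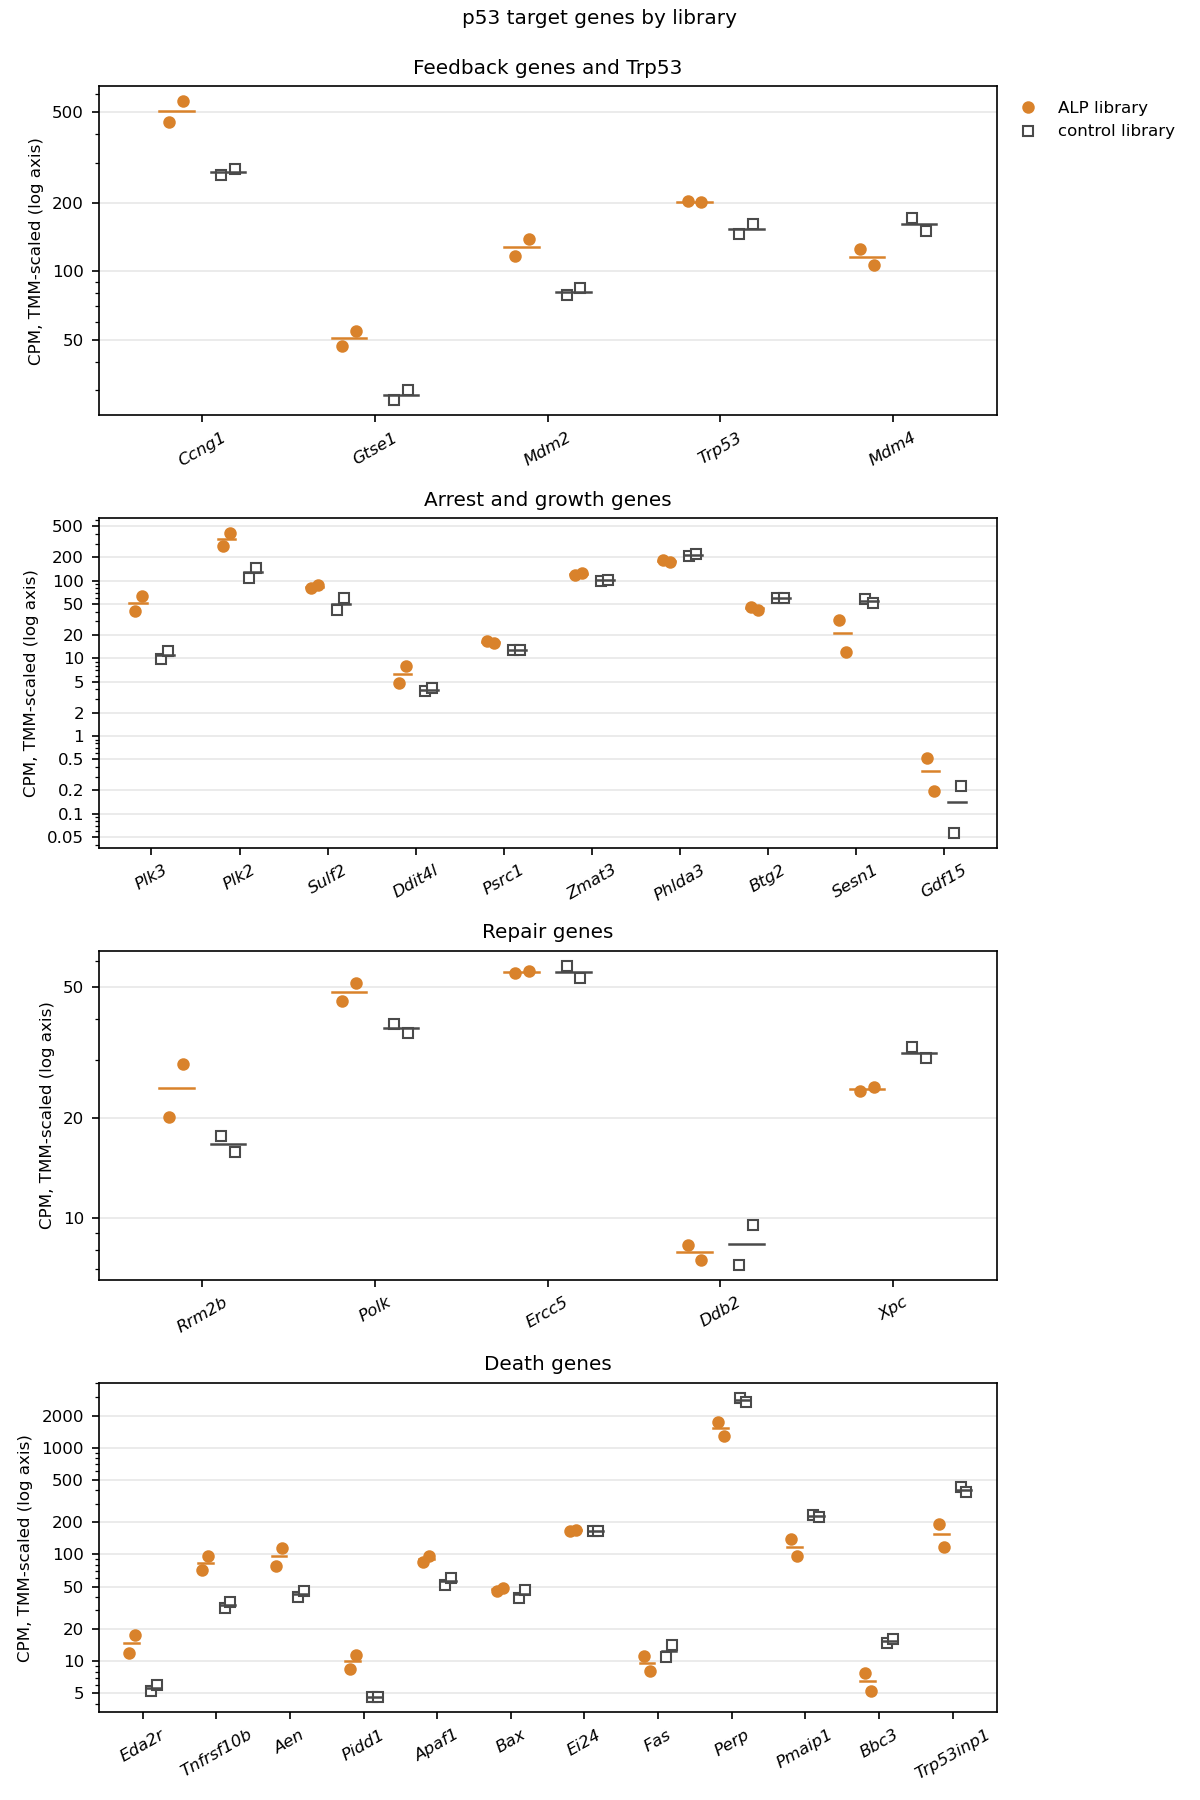
CPM (TMM-scaled, log axis) of each p53 target gene by library, with ALP libraries as filled circles, control libraries as open squares and the group mean as a line, in panels by role. Plk3 and Plk2 in ALP lie above their controls, Trp53inp1, Pmaip1, Bbc3 and Perp lie below theirs, and Ercc5, Ddb2, Bax, Fas and Gdf15 overlap.

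The feedback role has 5 genes, in which Trp53 itself is counted. All 5 passed, against 30.9% of all genes tested, with 4 rises under ALP and 1 fall (Mdm4). The median log2 fold change was 0.65. Trp53 (chromosome 11, 69580359 to 69591873, GRCm38) had 204 and 201 CPM in ALP and 146 and 161 CPM in control. Both ALP libraries lay above both controls, and the log2 fold change was 0.40 ± 0.09 (SE, n = 2 per group, adjusted p = 0.0264). Mdm2, the ligase that marks p53 for degradation (chromosome 10, 117688875 to 117710758), measured 117 and 139 CPM in ALP, against 78.4 and 84.4 CPM in control. It rose by 0.65 ± 0.11 on the log2 scale (adjusted p = 0.0171), or 1.57-fold. Mdm4, the partner that blocks p53's activity, went the other way, with 125 and 107 CPM in ALP against 172 and 150 CPM in control, a log2 fold change of -0.48 ± 0.12 (adjusted p = 0.0344). The strongest change of this role was in Ccng1, which encodes cyclin G1, a protein that recruits a phosphatase to Mdm2 (chromosome 11, 40748552 to 40755311). Ccng1 had 452 and 561 CPM in ALP and 264 and 281 CPM in control, a log2 fold change of 0.89 ± 0.13 (adjusted p = 0.0151). Gtse1 encodes a protein of S and G2 phase that in human cells binds p53 and moves it out of the nucleus. It had 47.1 and 54.5 CPM in ALP and 27.0 and 30.1 CPM in control, and rose by 0.83 ± 0.12 (adjusted p = 0.0151). Of the 4 genes with adjacent decamers above, Ccng1 and Gtse1 rose. The others, Sesn1 and Bax, did not pass (log2 fold changes -1.35 and 0.14). A link between the matches and the changes was not tested.

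Of the 10 arrest and growth genes 9 were tested, of which 3 rose, 1 fell and 5 did not pass. The share that passed was 44.4%, against 30.9% of all genes tested. The median log2 fold change was 0.35. Plk3, a stress-responsive kinase gene (chromosome 4, 117128655 to 117133963), had 40.5 and 63.6 CPM in ALP, against 9.85 and 12.5 CPM in control. Its rise of 2.22 ± 0.25 (4.66-fold, adjusted p = 0.0149) was the largest among the p53 target genes. Plk2, a related kinase gene that acts on centriole duplication (chromosome 13, 110395046 to 110400844), had 282 and 407 CPM in ALP and 110 and 145 CPM in control, and rose by 1.43 ± 0.22 (2.70-fold, adjusted p = 0.0151). Sulf2, which encodes an enzyme that removes sulfate from heparan sulfate, had 79.9 and 87.2 CPM in ALP and 42.2 and 59.2 CPM in control (log2 fold change 0.72 ± 0.17, adjusted p = 0.0319). It shares 2.62% of its exon bases with Ncoa3 on the opposite strand. Btg2, an antiproliferative gene whose product promotes mRNA deadenylation, had 46.2 and 42.1 CPM in ALP and 60.1 and 59.1 CPM in control. It was the gene of this role that fell, by 0.43 ± 0.10 (adjusted p = 0.0279).

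Sesn1, which encodes sestrin 1, an inhibitor of mTORC1 signaling, showed how far the ALP libraries can part. It had 30.8 and 11.96 CPM in ALP against 57.4 and 52.2 CPM in control. Both ALP libraries lay below both controls, yet they differed from each other by more than either control did from the other. Its log2 fold change of -1.35 had a 95% interval of -2.37 to -0.34 and an adjusted p = 0.0544. With ALP replicate A left out it was -2.20, and with ALP replicate B left out -0.82. In these fits the spread between the ALP libraries does not enter. With all libraries limma-voom called Sesn1 (adjusted p = 0.0292). DESeq2 (0.0878), edgeR's older method (0.0562), DESeq2 size factors (0.0529) and a filter of 1 CPM in 2 libraries (0.0546) did not. Zmat3, of an RNA-binding zinc finger protein, had a log2 fold change of 0.27 (interval 0.06 to 0.47) and Phlda3, of an inhibitor of AKT, one of -0.26 (interval -0.48 to -0.04). Psrc1, of a spindle microtubule protein, had 16.7 and 15.77 CPM in ALP against 12.8 and 12.6 CPM in control, a log2 fold change of 0.35 (interval 0.01 to 0.70). Ddit4l, of another mTORC1 inhibitor, measured 4.74 and 7.95 CPM in ALP and 3.74 and 4.11 CPM in control (log2 fold change 0.69, interval -0.08 to 1.45). The adjusted p-values of Zmat3, Phlda3, Psrc1 and Ddit4l ran between 0.0566 and 0.136. Gdf15, which encodes a secreted stress cytokine and is a widely used p53 target, had only 9 and 3 counts in ALP and 1 and 4 counts in control and was not tested. Without ALP replicate A, where 3872 of all genes were called higher and 3646 lower, 5 genes of this role were higher and 3 lower.

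The repair role was the one in which edgeR, DESeq2 and limma-voom each called 0 of 5 genes. Over all genes tested edgeR called 30.9%. At an unadjusted p under 0.05 edgeR had 3 of the 5, against 6552 of all 14056 genes tested. The directions of these 3 differed. Polk, of the translesion polymerase kappa, had 45.4 and 51.4 CPM in ALP and 38.7 and 36.3 CPM in control, a log2 fold change of 0.37 (interval 0.09 to 0.64, adjusted p = 0.0552). Rrm2b, of a p53-controlled subunit of ribonucleotide reductase, had 20.1 and 29.2 CPM in ALP and 17.7 and 15.77 CPM in control (log2 fold change 0.56, interval 0.04 to 1.07, adjusted p = 0.0898). Xpc encodes the damage sensor of nucleotide excision repair. It had 24.2 and 24.8 CPM in ALP and 32.9 and 30.5 CPM in control (log2 fold change -0.37, interval -0.65 to -0.09, adjusted p = 0.0567). In these 3 genes the groups did not overlap, as in 75.7% of all genes tested. Ercc5, of the nuclease XPG, measured 55.1 and 55.9 CPM in ALP inside the range of 58.0 and 53.3 CPM in control, and its interval ran from -0.24 to 0.23. Ddb2, of the ultraviolet damage sensor, had 8.27 and 7.44 CPM in ALP and 7.19 and 9.48 CPM in control, with an interval of -0.62 to 0.45. Ddb2 shares 23.8% of its exon bases with Acp2 on the opposite strand, which had 1464 counts over the 4 libraries against 551 for Ddb2. Without ALP replicate A, again in the fit with 7518 calls over all genes, Polk and Rrm2b passed as higher and Xpc as lower, and without ALP replicate B Xpc passed.

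The 12 death genes divided, with 5 higher, 4 lower and 3 that did not pass. The share that passed was 75%, against 30.9% of all genes tested. The median log2 fold change of the 12, 0.08, lay between strong changes on both sides (median absolute value 1.03). Genes of receptors and of caspase-activating scaffolds were among those that rose. Eda2r, which encodes a receptor of ectodysplasin A2 (chromosome X, 97333840 to 97377216), had 11.8 and 17.7 CPM in ALP and 5.27 and 6.00 CPM in control, and rose by 1.39 ± 0.25 (2.61-fold, adjusted p = 0.0181). Tnfrsf10b, the mouse TRAIL receptor gene (chromosome 14, 69767472 to 69784411), had 71.1 and 95.8 CPM in ALP against 31.7 and 35.7 CPM in control, and rose by 1.31 ± 0.17 (2.48-fold, adjusted p = 0.0149). In both the lower ALP library lay well above the higher control. Aen, of a nuclease that promotes apoptosis, had 78.7 and 114 CPM in ALP and 39.5 and 45.5 CPM in control (log2 fold change 1.18 ± 0.19, adjusted p = 0.0158). Pidd1, of the scaffold that activates caspase-2, had 8.39 and 11.5 CPM in ALP and 4.59 and 4.57 CPM in control (1.12 ± 0.23, adjusted p = 0.0236). Apaf1, of the apoptosome that activates caspase-9, had 84.3 and 97.0 CPM in ALP and 51.9 and 60.1 CPM in control (0.69 ± 0.12, adjusted p = 0.0171). The third receptor gene of this role, Fas, had 11.1 and 8.08 CPM in ALP and 10.99 and 14.1 CPM in control. Its groups overlapped, and its log2 fold change of -0.38 had an interval of -0.96 to 0.19 (adjusted p = 0.243), although it passed as lower in the fit without ALP replicate A (log2 fold change -0.64), which called more genes throughout.

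Bbc3 and Pmaip1 encode BH3-only proteins, which trigger the mitochondrial route of apoptosis, and both fell. Bbc3, which encodes PUMA (chromosome 7, 16308393 to 16318205), had 7.81 and 5.30 CPM in ALP and 14.95 and 16.1 CPM in control. It fell by 1.24 ± 0.22 on the log2 scale (adjusted p = 0.0181). Pmaip1, which encodes NOXA, had 138 and 96.7 CPM in ALP and 232 and 223 CPM in control and fell by 0.95 ± 0.17 (adjusted p = 0.0181). Bax, of the pore-forming protein on which they act, had 45.6 and 48.4 CPM in ALP and 39.3 and 46.1 CPM in control. These groups overlapped, with a log2 fold change of 0.14, an interval of -0.16 to 0.43 and an adjusted p = 0.400. Perp encodes a membrane protein that p53 induces in apoptosis and that p63 induces in epidermal desmosomes (chromosome 10, 18845020 to 18857073). It had 1746 and 1288 CPM in ALP and 2926 and 2706 CPM in control and fell by 0.89 ± 0.17 (adjusted p = 0.0206). Trp53inp1, of a stress protein that promotes p53's death program and autophagy (chromosome 4, 11156431 to 11174379), had 193 and 117 CPM in ALP and 431 and 381 CPM in control. Its decrease of 1.39 ± 0.24 (adjusted p = 0.0165) was the largest that passed among the p53 target genes. Ei24, of an endoplasmic reticulum protein of autophagy, had 167 and 168 CPM in ALP and 167 and 165 CPM in control, with an interval of -0.17 to 0.21 (adjusted p = 0.883).

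**Figure D3:**
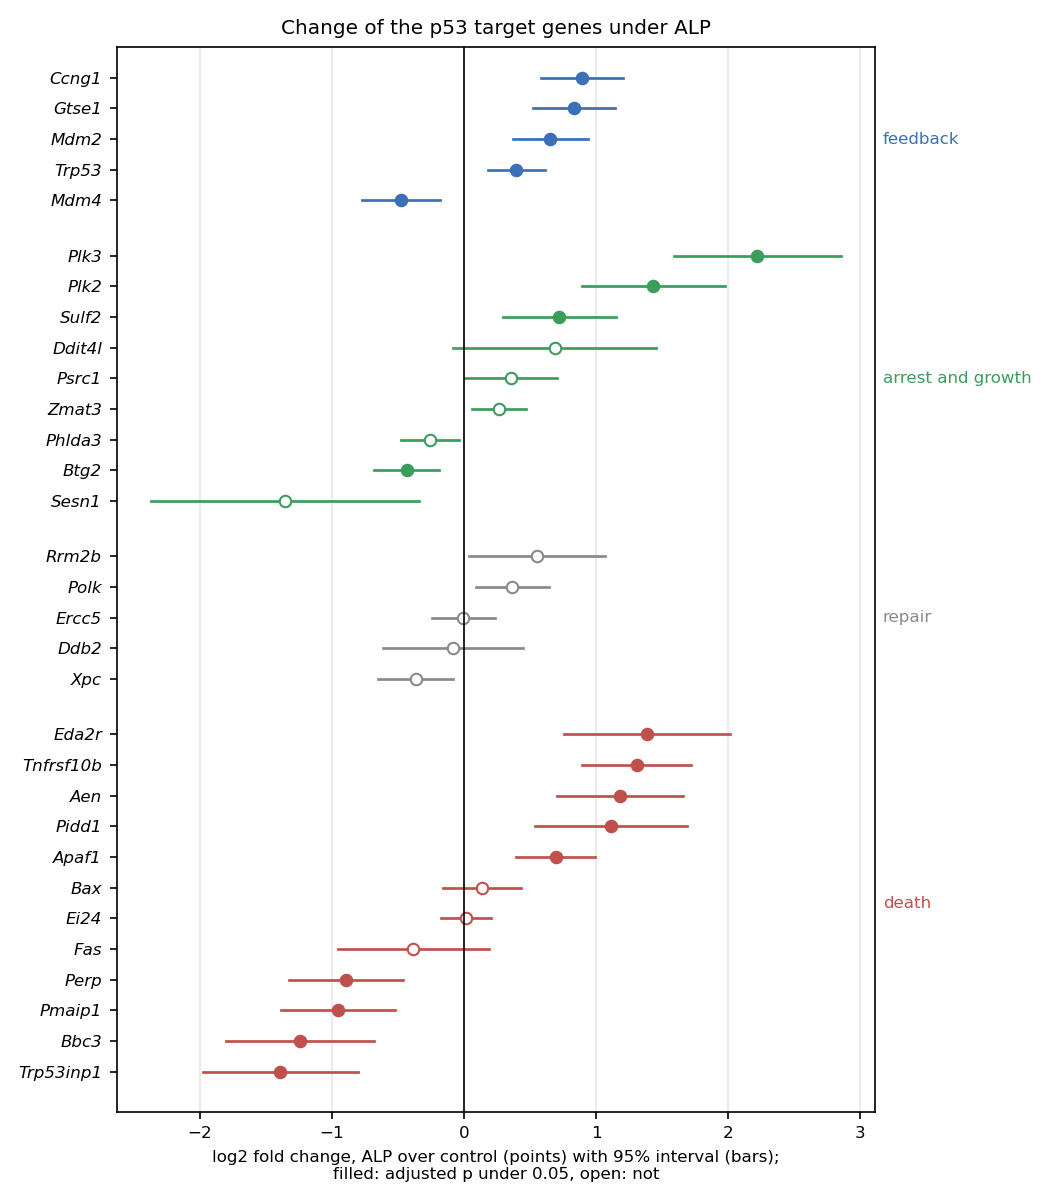
Log2 fold change of ALP over control for the 31 tested p53 target genes, by role, with 95% intervals from edgeR's quasi-likelihood fit and filled points at an adjusted p under 0.05. The feedback genes are higher except Mdm4, the repair genes are all open, and the death genes run from Eda2r at 1.39 to Trp53inp1 at -1.39.

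The ALP libraries differed in how far they moved. In 17 of the 18 genes that passed, ALP replicate B lay farther from the control mean than ALP replicate A, and the exception was Trp53. Over all 4350 genes that passed, 92% had ALP replicate B farther out. Plk3 was 1.86 above the control mean on the log2 scale in ALP replicate A and 2.51 above it in ALP replicate B, and Trp53inp1 stood at -1.07 in replicate A and -1.79 in replicate B. Each of the 18 kept its direction in both ALP libraries. Selection of the 18 by a test on these same libraries favors such agreement, so it lends no support.

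**Figure D4:**
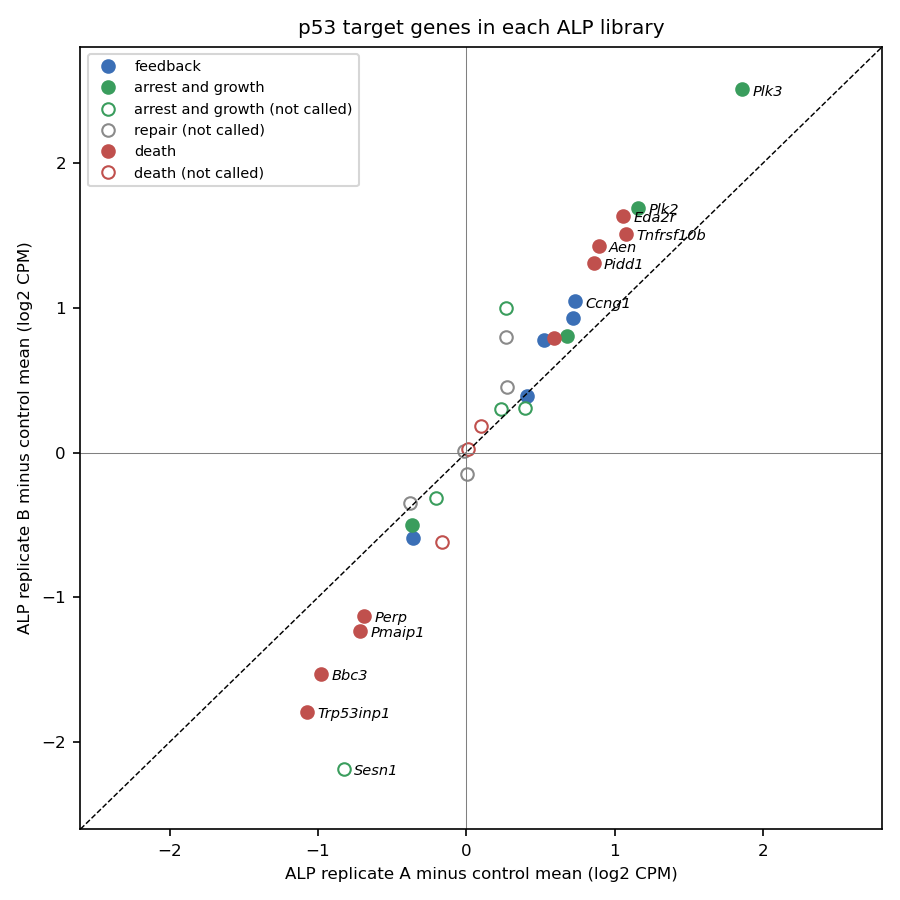
Log2 CPM difference from the control mean of each tested p53 target gene in ALP replicate A (horizontal) and ALP replicate B (vertical), colored by role, with open points for genes that did not pass and a dashed line where both libraries are equal. Points that passed lie farther from 0 on the vertical axis for 17 of 18 genes, and Sesn1 has the widest gap among the named points.

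Levels were also compared between genes per length, as CPM per kilobase of the gene length in the table. Perp was highest in both groups, with 895 and 660 CPM per kilobase in ALP and 1499 and 1386 in control. In control it was followed by Phlda3 (133 to 142 CPM per kilobase), Pmaip1 (84.2 to 87.8), Ccng1 (75.1 to 80.04), Trp53inp1 (58.8 to 66.6), Trp53 (36.2 to 39.8) and Ei24 (33.9 to 34.2), none of which overlapped the next. Plk2 and Bax, in the places after these, overlapped, and so did each pair of neighbors from Mdm4 down to Xpc except Ercc5 and Zmat3. In ALP the order after Perp was Ccng1 (129 to 159.7 CPM per kilobase), Phlda3 (111 to 119), Plk2 (62.7 to 90.6), Trp53 (49.6 to 50.4) and Pmaip1 (36.5 to 52.3), whose range spanned that of Trp53. Plk3 stood in place 11 in ALP and 25 in control, and Sesn1 in place 22 in ALP and 12 in control. Pidd1 and Eda2r, which rose, stayed low per length, with 1.85 to 2.54 and 2.004 to 3.007 CPM per kilobase in ALP, against 1.009 to 1.013 and 0.894 to 1.018 in control.

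Among 21 regulators and relatives of p53, 3 rose, 5 fell and 13 did not pass (median log2 fold change 0.01). The share that passed was 38.1%, against 30.9% of all genes tested (18% higher, 12.9% lower). DESeq2 called 3 lower, against 1716 over all genes, and left out Cop1 and Trp53bp1. Chek1, the replication checkpoint kinase gene, had 21.9 and 30.5 CPM in ALP and 11.8 and 12.3 CPM in control, and rose by 1.12 ± 0.19 (adjusted p = 0.0171). Usp7, of the deubiquitinase that stabilizes Mdm2 and p53, rose by 0.37 ± 0.09 (adjusted p = 0.0335), and the third gene that rose was Atr. Trp63, of the basal keratinocyte factor p63, had 409 and 313 CPM in ALP and 564 and 536 CPM in control and fell by 0.61 ± 0.14 (adjusted p = 0.0304). Ppm1d, of the phosphatase WIP1 that switches p53 signaling off and is itself a p53 target, had 23.1 and 17.3 CPM in ALP and 34.9 and 30.9 CPM in control. It fell by 0.70 ± 0.17 (adjusted p = 0.0338), so that Ppm1d and Mdm4 were lower while Mdm2 was higher. Cdkn2a, whose locus encodes the Mdm2 inhibitor ARF, was low, at 1.27 and 1.23 CPM in ALP and 0.963 and 0.857 CPM in control (log2 fold change 0.46, interval -0.42 to 1.33, adjusted p = 0.352). The other genes that fell were Trp73, of the third p53 family member, Cop1 and Trp53bp1, which are named after their values were seen, as is Atr.

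Of 22 further p53 targets 19 were tested, of which 8 rose, 0 fell and 11 did not pass. The share that passed was 42.1%, against 30.9% of all genes tested (18% higher, 12.9% lower). The median log2 fold change was 0.30. Without ALP replicate A, where 7518 of all genes passed, 10 were higher and 2 lower. At an unadjusted p under 0.05 edgeR had 9 of the 19 with all libraries, against 6552 of all 14056 genes tested. DESeq2 called 6 higher and 0 lower, against 2340 higher and 1716 lower over all genes. For limma-voom these were 8 higher and 0 lower, against 2624 and 2117. Cdkn1a, of the cell cycle inhibitor p21 and the best known arrest target, had 305 and 354 CPM in ALP and 282 and 291 CPM in control. Both ALP libraries lay above both controls, but the groups did not overlap in 75.7% of all genes tested. The log2 fold change of Cdkn1a, 0.20 (interval -0.05 to 0.45), did not pass (adjusted p = 0.171). Epha2, of an ephrin receptor, had 157 and 257 CPM in ALP and 37.1 and 39.4 CPM in control and rose by 2.44 ± 0.24 (adjusted p = 0.0149), more than any of the 32 genes. Ass1, of argininosuccinate synthase, had 280 and 266 CPM in ALP and 163 and 191 CPM in control and rose by 0.63 ± 0.10 (adjusted p = 0.0160). Dram1, of a lysosomal protein in p53-induced autophagy, had 11.8 and 17.2 CPM in ALP and 5.95 and 6.06 CPM in control and rose by 1.27 ± 0.23 (adjusted p = 0.0187).

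Genes that p53 lowers through p21 and the DREAM repressor complex are cell cycle genes. All 12 of this list were tested, and 9 rose, 0 fell and 3 did not pass. The share that passed was 75%, against 30.9% of all genes tested, and the median log2 fold change was 0.56. At an unadjusted p under 0.05 edgeR had 10 of the 12, against 6552 of all 14056 genes tested. DESeq2 and limma-voom each called 10 higher and 0 lower. Over all genes DESeq2 called 2340 higher and 1716 lower, and limma-voom 2624 higher and 2117 lower. Cdk1, the mitotic kinase gene, had 135 and 156 CPM in ALP and 80.9 and 82.4 CPM in control and rose by 0.83 ± 0.10 (adjusted p = 0.0149). Aurka, of the Aurora A kinase, had 95.2 and 97.6 CPM in ALP and 52.8 and 61.9 CPM in control and rose by 0.75 ± 0.11 (adjusted p = 0.0151). Bub1, of the spindle checkpoint kinase, had 65.0 and 84.6 CPM in ALP and 39.1 and 36.7 CPM in control and rose by 0.98 ± 0.15 (adjusted p = 0.0151). Gtse1, itself a cell cycle gene, changed by 0.83, inside the range of 0.09 to 0.98 of these 12. That range also holds Mdm2 (0.654) and Ccng1 (0.895), and a link of Gtse1 to these 12 genes was not tested.

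**Figure D5:**
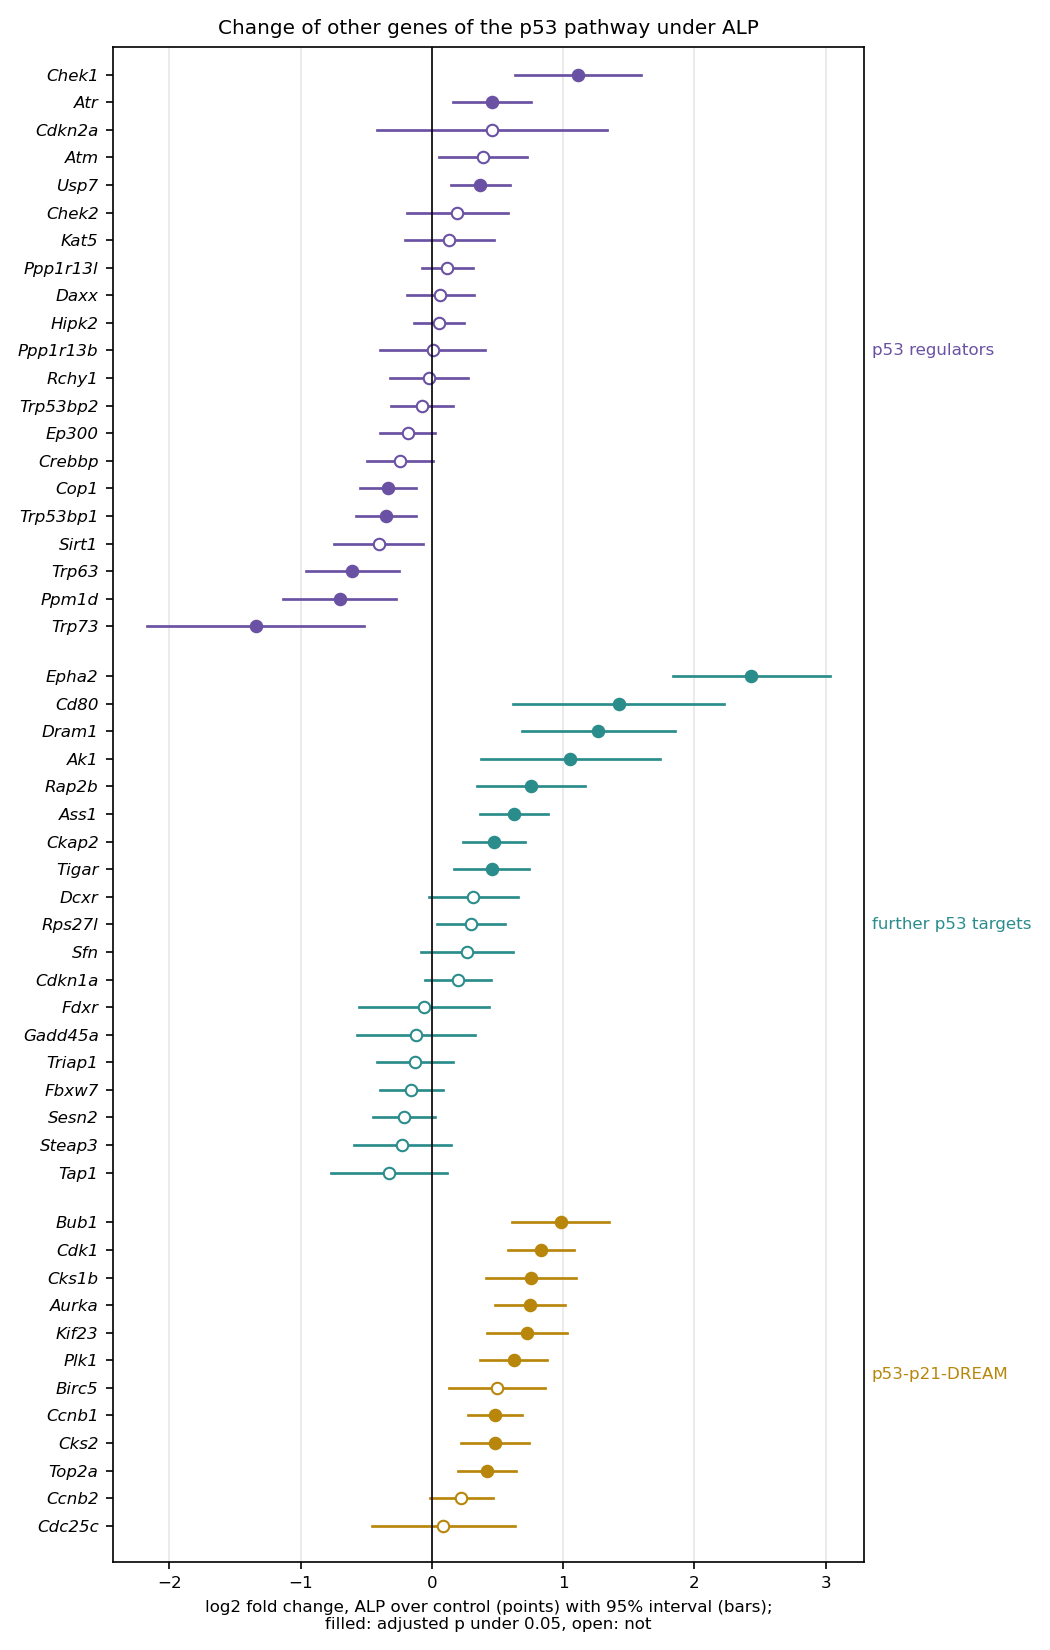
Log2 fold change of ALP over control for the tested genes of 3 other lists of the p53 pathway, with 95% intervals from edgeR's quasi-likelihood fit and filled points at an adjusted p under 0.05. The regulators run from Chek1 at 1.12 to Trp73 at -1.34, Cdkn1a is an open point at 0.20, and 9 of the 12 genes of the p53-p21-DREAM list are filled and above 0.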

How the data were processed

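The authors deposited 1 table of raw counts, whole numbers per gene and library. The submitters' processing notes list HISAT2 2.0.5 and featureCounts 1.5.0-p3. They also list GRCh38, but the identifiers are mouse ones: 99.9% occur in GENCODE M21, 98.3% of these at the same start and end, so coordinates are GRCm38. Neither strandedness nor the handling of multiply mapping reads is stated in the sources. The columns' numbers differ from the labels' numbers, so columns were assigned to groups only. A further 4 per-library columns, of FPKM, were not used because the group assignment was applied to 1 measure, and CPM per kilobase was computed from the counts in their place. Columns of the authors' own comparison were also not used.

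Genes were kept by filterByExpr (minimum count 10, minimum total 15), scaled by TMM and compared by edgeR 4.0.16's bias-adjusted quasi-likelihood F test (R 4.3.3), in a model with the group alone, two-sided, with Benjamini-Hochberg adjustment over all tested genes and a threshold of 0.05. The fit had 2 residual degrees of freedom. Intervals use the standard error, which is the log2 fold change over the square root of F, and the fit's degrees of freedom. Alternatives were DESeq2 1.42.0, limma-voom (limma 3.58.1), DESeq2 size factors, other filters, leaving out each library and edgeR's older quasi-likelihood method. Which of the edgeR methods served as the main one was chosen after seeing the data: the older one was run first, with 4188 genes passing, and the bias-adjusted one, with 4350, was then adopted because an earlier account of these data had used it.

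The genes, lists and roles were chosen with earlier results of these data known. Values are given for the 4 genes of each role with the smallest p and for Trp53, Mdm2, Mdm4, Bbc3 and Bax, and further genes given in full, such as Sesn1, were picked after their values were seen. For each other list they are given for the 3 genes with the smallest p and for Cdkn1a, Ppm1d, Cdkn2a and Trp63.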

Additional observations from a re-analysis of the deposited data

How the results depend on the processing

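Under DESeq2's Wald test, DESeq2 size factors, a filter of 1 CPM in 2 libraries and edgeR's older method the same 18 p53 target genes passed, and limma-voom called these and Sesn1, so that 2 arrest and growth genes were lower. DESeq2 called 3 of the regulators lower. Without a filter on low counts edgeR called 0 genes, among them 0 p53 target genes and 0 genes of each role and list. In this fit the smallest adjusted p was 0.0524. At an unadjusted p under 0.05 it had 24 of the 31, and 7068 of all genes. The median of the repair genes was -0.01 with DESeq2 size factors. In leave-one-out fits the lone library is assumed to vary like the other group. They called between 0 and 7518 genes, with 0 to 3872 higher and 0 to 3646 lower. Of the p53 target genes they called 0 to 26, with 0 to 16 higher and 0 to 10 lower. By role, they called 0 to 4 feedback genes higher and 0 to 1 lower, 0 to 5 arrest and growth genes higher and 0 to 3 lower, 0 to 2 repair genes higher and 0 to 1 lower, and 0 to 5 death genes higher and 0 to 5 lower. In the other lists they called 0 to 4 regulators higher and 0 to 7 lower, 0 to 10 further targets higher and 0 to 2 lower, and 0 to 11 genes of the p53-p21-DREAM list higher. The totals of 0 over all genes came from leaving out either control library, and the cause was not tested. Medians ran from 0.28 to 0.33 for the tested p53 target genes, from 0.28 to 0.35 for arrest and growth, from 0.001 to 0.133 for repair, from 0.015 to 0.139 for death and from 0.54 to 0.77 for feedback. Ercc5 ran from -0.058 to 0.048 and Ddb2 from -0.281 to 0.133. Ercc5 reversed without ALP replicate A (0.002) and without control replicate A, and Ddb2 without ALP replicate B (0.001) and without control replicate B, with neither called in these fits. No paired analysis was possible because the columns of the groups share fewer than 2 replicate numbers. The 2 libraries a group and adjusted p-values between 0.0149 and 0.05 limit all calls.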
